A study of Mus musculus with 36 samples.

Results

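The dendritic cells (DC) of the mouse thymus were compared between cells positive and cells negative for Sirpa, a surface receptor that binds CD47 and was used to sort them. The comparison took all 6 arrays labelled Sirpa+ DC and all 6 labelled Sirpa- DC, 12 of the 36 arrays of the series. Both populations came from thymi of male C57BL/6J wild-type mice aged 1, 3 or 6 months, and each population and age has 2 arrays. The other 24 arrays hold thymic fibroblasts and 3 kinds of epithelial cell, the cortical cTEC and the medullary mTEClo and mTEChi, at the same ages and in the same numbers. The thymi were digested with enzymes and the cells were purified by flow cytometry. The labels give 1 mouse per sample, whereas the text on the design gives 2 mice per age. Arrays of one age may thus come from shared animals, and the p-values measure the spread between these samples alone. Gates of the sort beyond Sirpa are not stated in the labels used here.

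Thymic DC present self antigens to developing T cells, which are deleted or turned into regulatory T cells when they bind too strongly. Sirpa- DC of the thymus belong mostly to the type 1 conventional lineage (cDC1), which depends on the transcription factors Irf8 and Batf3, arises from precursors within the thymus and takes up antigen from dying or medullary epithelial cells. Sirpa+ DC belong mostly to the type 2 lineage (cDC2), which depends on Irf4 and enters the thymus from blood, carrying antigen from outside.

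Values are log2 signals, so a difference of 1 is 2-fold. Each gene is represented by the probe set with 1 gene symbol and the highest mean over the 36 arrays, and 14495 genes were tested. A gene is said to differ, to be called, or to be higher or lower in Sirpa+ DC when the limma adjusted p was under 0.05 and the difference at least 2-fold. Differences are Sirpa+ minus Sirpa- DC, ages weighted equally, with the standard error (SE) of the fit, for 6 arrays against 6. A gene that was not called may still have an adjusted p under 0.05 with a difference of less than 2-fold. Medians of the 12 arrays were 5.61 to 5.70, and precision is set by the small number of arrays. Across genes, an array of one DC population correlated with one of the other at 0.936 to 0.963, while 2 arrays of one population and age correlated at 0.974 to 0.994. Each of the 12 arrays was closest to an array of its own population.

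A pair of Sirpa- arrays stood apart from the rest of their population. In replicate 2 at 3 months, the mean of the B cell markers was 7.54, against 6.33 to 6.60 in the other 5 arrays, and natural killer cell and monocyte genes were also raised. In replicate 1 at 1 month, the mean of the plasmacytoid DC markers was 8.62, against 7.20 to 7.72 in the other 5. The Sirpa+ arrays of the same age and replicate number were also the highest of their population for these lists. At 3 months, replicate 2 had 7.21 for B cell markers, 6.72 for natural killer genes and 9.23 for monocyte genes. At 1 month, replicate 1 had 8.78 for plasmacytoid DC markers. Without the pair of Sirpa- arrays, and with these Sirpa+ arrays kept, 845 genes were called. Of these, 751 were among the 779 called with all arrays. Of the lists described in turn, the macrophage markers then had 10 of 14 members higher in Sirpa+ DC in place of 8, the lineage transcription factors 8 of 25 in place of 6, the chemokines 11 of 29 in place of 10 and the cathepsins 9 of 19 in place of 7. Monocyte genes had 7 higher in place of 6 and plasmacytoid DC markers 5 in place of 4. For B cell markers the count was 2 in place of 1, and for prostaglandin and leukotriene genes 5 in place of 4. Cytokines had 3 higher in place of 4, and Notch genes 3 lower in place of 2. The cDC1 markers had 13 of 17 lower in place of 14, and the counts of cDC2 markers and of both interferon lists stayed at 13, 8 and 6.

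The sorting labels were checked on Sirpa and on 4 markers. Sirpa itself, which the sort fixed, had 10.01 to 10.36 (median 10.22) in Sirpa+ DC, against 5.56 to 7.67 (median 7.56) in Sirpa- DC. Xcr1, the chemokine receptor of cDC1, had 4.31 to 5.08 (median 4.48) in Sirpa+ DC, against 8.80 to 9.89 (median 8.93) in Sirpa- DC, and the populations did not overlap. Cx3cr1, the fractalkine receptor, had 8.31 to 10.25 (median 9.61) in Sirpa+ DC, against 5.55 to 6.18 (median 6.04) in Sirpa- DC, again without overlap. Clec10a, a lectin of cDC2, had 9.21 to 10.15 (median 9.56) in Sirpa+ DC, against 6.34 to 9.20 (median 7.31) in Sirpa- DC. Its highest Sirpa- value, from replicate 1 at 1 month, came close to the lowest Sirpa+ value. Batf3 did not separate the populations, with 9.90 to 10.52 (median 10.20) in Sirpa+ DC, against 10.33 to 10.82 (median 10.51) in Sirpa- DC and a difference of -0.36 ± 0.13 (limma adjusted p = 0.0510). Both populations expressed Batf3 well above the other 4 populations, whose mean was 5.61. Of 13 genes shared by all conventional DC, 0 were called. Itgax, which encodes CD11c, had 10.82 to 11.57 (median 11.20) in Sirpa+ DC, against 10.42 to 11.11 (median 10.71) in Sirpa- DC.

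In all, 779 genes differed between the populations, 5.37% of those tested. Higher in Sirpa+ DC were 561 genes (3.87%) and lower were 218 (1.5%). The counts called in each list below stand against these shares. The arrays of the populations did not overlap for 446 of the 561 and for 197 of the 218. Over all tested genes, the Sirpa+ arrays lay above all Sirpa- arrays for 927 (6.4%) and below all of them for 745 (5.14%). Differences of at least 4-fold were found for 168 higher and 45 lower genes, and of at least 8-fold for 41 and 13. The median difference over all genes was 0.00249. In these bulk samples, fewer cells of a type and less RNA per cell cannot be told apart. Levels of different genes were not compared, since a probe set's signal also depends on its own sequence.

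The called genes were also placed against the rest of the thymic stroma. All 6 Sirpa- arrays lay above all 30 other arrays of the series for 84 of the 218 (38.5%), and all 6 Sirpa+ arrays did so for 144 of the 561 higher genes (25.7%). Over all tested genes, the shares were 1.37% for Sirpa- and 1.57% for Sirpa+ DC. At the low end, for 61 of the 561 genes higher in Sirpa+ DC (10.9%), all 6 Sirpa- arrays lay below all 30 other arrays, against 0.952% of all tested genes. Among these 61 were the actin-capping protein gene Capg, the metalloproteinase inhibitor gene Timp2, the cholesterol exporter gene Abca1 and the interferon-induced genes Ifit1, Gbp6, Gbp7 and Ifitm3, named after their values were seen. The reverse, Sirpa+ arrays below all others, held for 14 of the 218 lower genes (6.42%), against 0.276% of all tested genes. A call asks for a gap between the DC populations, which by itself favours such positions. All tested genes are thus no equal baseline. These shares describe the genes and were not tested.

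**Figure D1:**
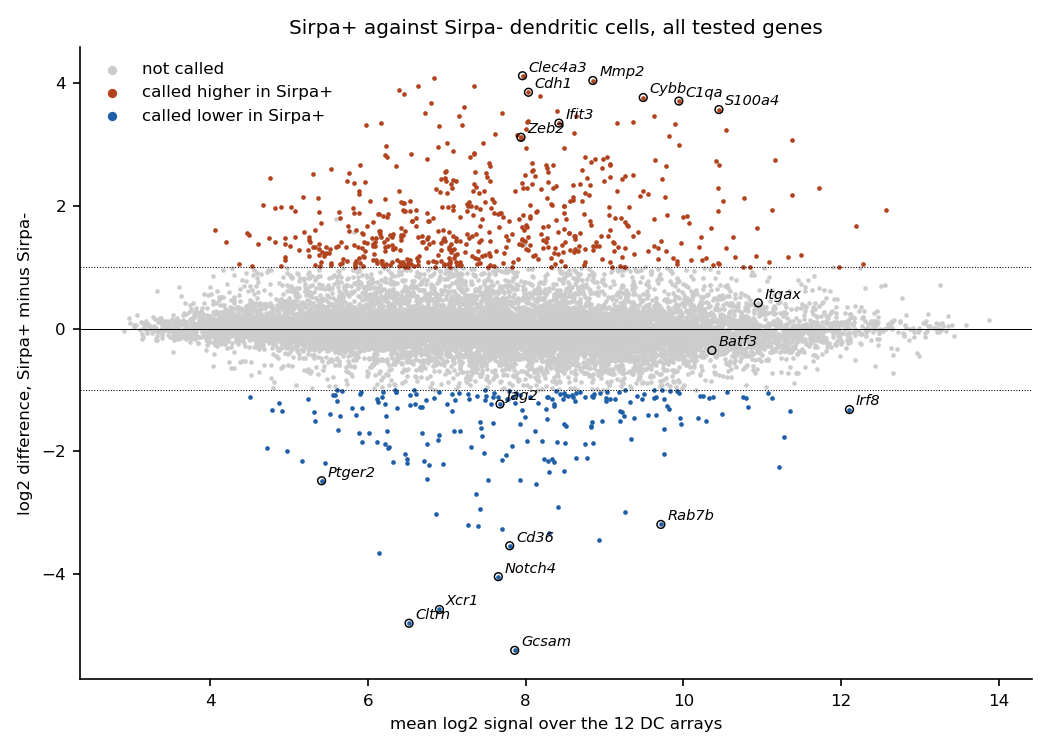
Difference between Sirpa+ and Sirpa- DC (vertical axis, log2) against the mean log2 signal over the 12 DC arrays (horizontal axis) for the 14495 tested genes; dotted lines mark 2-fold. The 561 genes called higher in Sirpa+ DC lie above and the 218 called lower lie below, with Gcsam, Cltrn and Xcr1 lowest, while Batf3 and Itgax lie between the dotted lines.

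The 15 largest differences in favour of Sirpa+ DC, among called genes whose arrays did not overlap, are given first. Clec4a3, a C-type lectin of the inhibitory Dcir group, had 8.79 to 11.13 (median 10.04) in Sirpa+ DC, against 4.06 to 7.48 (median 6.20) in Sirpa- DC. It was 17.4-fold higher (log2 4.12 ± 0.39 SE, limma adjusted p = 1.13e-08), and its Sirpa- level varied more between arrays than its Sirpa+ level. Ccr1, a receptor of inflammatory chemokines, had 8.71 to 9.21 (median 8.81) in Sirpa+ DC, against 4.31 to 5.62 (median 4.72) in Sirpa- DC. It was 16.9-fold higher (4.08 ± 0.16), with all Sirpa+ arrays within 0.51 of each other. Sirpb1a, an activating relative of Sirpa, had 7.27 to 9.46 (median 8.61) in Sirpa+ DC, against 4.17 to 4.95 (median 4.54) in Sirpa- DC (14.1-fold higher). Mgl2, a galactose-binding lectin of cDC2, had 9.58 to 10.67 (median 9.98) in Sirpa+ DC, against 5.41 to 7.31 (median 6.15) in Sirpa- DC (13.8-fold). Cybb, the catalytic subunit of the phagocyte oxidase, had 11.18 to 11.56 (median 11.44) in Sirpa+ DC, against 6.25 to 9.29 (median 7.55) in Sirpa- DC (13.6-fold). The Sirpa- arrays spread widely for Cybb, with the highest values in both arrays that stood apart.

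Mmp2, a gelatinase, had 10.30 to 11.35 (median 10.87) in Sirpa+ DC, against 5.88 to 7.69 (median 6.83) in Sirpa- DC (16.5-fold higher), and Cdh1, which encodes E-cadherin, had 9.45 to 10.30 (median 9.99) in Sirpa+ DC, against 4.33 to 7.90 (median 5.87) in Sirpa- DC (14.5-fold). These are not genes of DC alone: the mean of the other 4 populations was 10.14 for Mmp2 and 9.60 for Cdh1, near the level in Sirpa+ DC. The means of 14 thymic epithelial markers were 6.18 to 6.79 in Sirpa+ and 5.84 to 6.28 in Sirpa- arrays, against 9.50 to 10.62 in epithelial arrays. Their part in the result was not tested. The other genes among these 15 were the chemokine genes Ccl12 (15.5-fold) and Ccl9 (11.7-fold), the platelet-activating factor hydrolase Pla2g7 (15.5-fold), the complement gene C1qa (13.1-fold), the cytochrome Cyp4f18 (12.9-fold), the protease inhibitor Cst7 (12.3-fold), the calcium-binding S100a4 (11.9-fold) and Cx3cr1 (11.4-fold). For Ccl9 and S100a4 the highest Sirpa- value came from replicate 2 at 3 months.

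**Figure D2:**
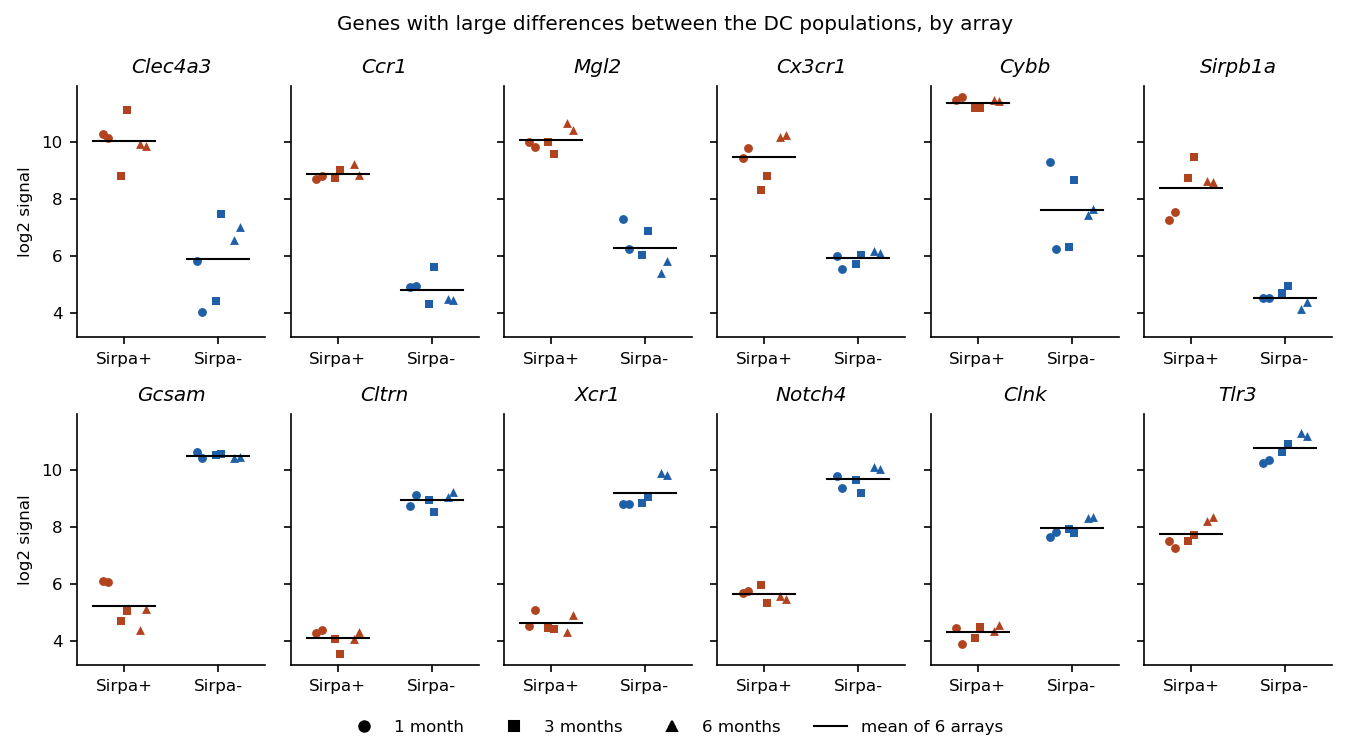
Log2 signal of 12 genes in each of the 6 Sirpa+ (left) and 6 Sirpa- (right) DC arrays, with symbols for age and a line at the mean of the 6 arrays. In the upper row the Sirpa+ arrays lie above all Sirpa- arrays, and in the lower row they lie below all of them, as for Gcsam at 4.39 to 6.11 in Sirpa+ DC against 10.40 to 10.61 in Sirpa- DC.

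The 15 largest differences in favour of Sirpa- DC, chosen by the same rule, began with Gcsam. Gcsam, an adaptor known from germinal centre B cells, had 4.39 to 6.11 (median 5.08) in Sirpa+ DC, against 10.40 to 10.61 (median 10.46) in Sirpa- DC. It was 38.0-fold lower in Sirpa+ DC (-5.25 ± 0.14, limma adjusted p = 1.35e-18), and the other 4 populations averaged 3.68. Cltrn, a membrane protein also called collectrin, had 3.56 to 4.37 (median 4.19) in Sirpa+ DC, against 8.52 to 9.22 (median 8.99) in Sirpa- DC (28.0-fold lower in Sirpa+ DC). Xcr1 was 24.0-fold lower (-4.58 ± 0.14, limma adjusted p = 7.60e-18). Notch4, a Notch receptor best known from endothelium, had 5.34 to 5.95 (median 5.64) in Sirpa+ DC, against 9.18 to 10.10 (median 9.71) in Sirpa- DC (16.5-fold lower). Clnk, an adaptor of immune receptors, had 3.90 to 4.58 (median 4.40) in Sirpa+ DC, against 7.63 to 8.33 (median 7.88) in Sirpa- DC (12.6-fold lower). Cd36, a scavenger receptor for lipids and dying cells, had 4.94 to 6.62 (median 6.19) in Sirpa+ DC, against 9.18 to 9.82 (median 9.68) in Sirpa- DC (11.7-fold lower). For these 6 genes, all Sirpa- arrays lay above all 30 other arrays. The Sirpa+ signals of Gcsam, Cltrn, Xcr1 and Clnk lay mostly or wholly below 5.66, the median of all signals pooled over the 36 arrays. Those of Notch4, with a median of 5.64, lay close to it. The folds of all these genes rest on dim signals whose distance from background the deposited values do not give. The same holds for genes higher in Sirpa+ DC whose Sirpa- signals lay below 5.66, such as Ccr1 and Sirpb1a.

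The next were the lipid phosphatase Plpp1 (10.9-fold lower in Sirpa+ DC), the Wnt receptor Fzd1 (10.0-fold), the lectin Cd207 or langerin (9.62-fold), the peptidase Naalad2 (9.27-fold), the scaffold protein Homer2 (9.25-fold), the endosomal GTPase Rab7b (9.16-fold), the integrin Itga8 (8.16-fold), the double-stranded RNA sensor Tlr3 (7.98-fold) and Treml4 (7.69-fold), a receptor for dead cells. Of the 30 genes with the largest differences, 12 have more than 1 probe set above the filter. For 10 of the 12 each probe set passed the same call, and for Cx3cr1 and Naalad2 a further probe set pointed the same way with a difference of 0.962 and 0.876. Probe sets of near-identical relatives can share signal, so the values of Clec4a3, Sirpb1a, Ccl12 and Ccl9 are uncertain to that extent.

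Of 25 tested transcription factors of the DC lineages, 6 were higher and 2 lower in Sirpa+ DC. Zeb2, which represses the cDC1 fate, had 8.61 to 10.35 (median 9.47) in Sirpa+ DC, against 4.61 to 7.52 (median 6.87) in Sirpa- DC (8.69-fold higher, limma adjusted p = 3.45e-08). Cebpa, a myeloid factor, had 8.64 to 9.61 (median 9.35) in Sirpa+ DC, against 6.39 to 7.01 (median 6.82) in Sirpa- DC (5.70-fold), and its relative Cebpb was 2.68-fold higher. Irf4, the factor of cDC2, had 9.11 to 9.92 (median 9.52) in Sirpa+ DC, against 6.24 to 7.67 (median 7.13) in Sirpa- DC (5.24-fold). Prdm1, which encodes Blimp-1, was 3.53-fold higher and Tbx21, which encodes T-bet, 2.48-fold. Tbx21 overlapped between the populations, with 4.91 to 8.34 (median 6.44) in Sirpa+ DC, against 4.67 to 6.83 (median 4.98) in Sirpa- DC. On the other side, Mycl, a Myc family member of cDC1, had 7.87 to 9.74 (median 8.63) in Sirpa+ DC, against 10.19 to 11.31 (median 10.78) in Sirpa- DC (4.12-fold lower in Sirpa+ DC). Irf8 had 11.45 ± 0.40 in Sirpa+ DC and 12.77 ± 0.19 in Sirpa- DC (SD, n = 6 each) (2.5-fold lower). Neither Irf4 nor Irf8 overlapped between the populations, and both populations carried Irf8 at a high level. Factors that were not called included Id2 (-0.72 ± 0.20), Bcl6 (-0.93 ± 0.14), Nfil3 (0.57 ± 0.14), Zbtb46 (-0.64 ± 0.19), Klf4 (0.55 ± 0.25), Relb (0.53 ± 0.15) and Spi1 (0.27 ± 0.13). Some of these differed less than 2-fold at an adjusted p under 0.05, such as Bcl6 and Id2 (limma adjusted p = 1.22e-05 and 0.0115).

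Of 17 tested cDC1 markers, 14 were lower in Sirpa+ DC, with a median difference over the list of -1.56, and of 17 cDC2 markers, 13 were higher, with a median of 2.10. Both lists name the sorted lineages, so they check the sort. Their members recur in other lists, such as Xcr1, Cx3cr1, Clec4a2, Cd207, Cd14 and Tlr3, and check the sort there too. Beyond those given above, the cDC1 markers that were lower included the lysosomal enzymes Ppt1 (-2.25 ± 0.19) and Naaa (-1.77 ± 0.25), the orphan receptor Gpr33 (-2.45 ± 0.11), the sorting nexin Snx22 (-1.91 ± 0.17), the adhesion molecule Cadm1 (-1.56 ± 0.23), the integrin Itgae or CD103 (-1.10 ± 0.19) and the inhibitory receptor Btla (-1.04 ± 0.30). Cd8a, the classical surface marker of cDC1, had 8.06 to 8.87 (median 8.40) in Sirpa+ DC, against 8.89 to 10.19 (median 9.65) in Sirpa- DC. Wdfy4, needed for cross-presentation by cDC1, was not called (-0.36 ± 0.22) and was high in both populations at 10.78 to 12.06 (median 11.30) in Sirpa+ DC, against 11.44 to 11.90 (median 11.65) in Sirpa- DC. The endocytic receptor Ly75, or DEC-205, missed the fold (-0.86 ± 0.22, limma adjusted p = 0.00464).

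Among the cDC2 markers, Csf1r, the receptor for macrophage colony-stimulating factor, had 12.56 to 13.10 (median 12.92) in Sirpa+ DC, against 9.75 to 10.98 (median 10.84) in Sirpa- DC. Cd209a, a relative of DC-SIGN, had 7.90 to 10.10 (median 8.93) in Sirpa+ DC, against 5.64 to 6.86 (median 6.17) in Sirpa- DC, and Ltb, a lymphotoxin subunit, had 8.93 to 10.17 (median 10.08) in Sirpa+ DC, against 6.95 to 8.58 (median 7.69) in Sirpa- DC. The 4 that were not called were Itgam (0.89 ± 0.12), Ccr2 (0.76 ± 0.19), Dtx1 (0.33 ± 0.19) and Esam (0.02 ± 0.12). Itgam, which encodes CD11b, was dim throughout, with 4.44 to 6.21 (median 4.84) in Sirpa+ DC, against 3.90 to 4.43 (median 4.27) in Sirpa- DC, below the pooled median of 5.66 in most arrays. Esam, a marker of a Notch-dependent group of splenic cDC2, had 6.66 to 7.15 (median 6.95) in Sirpa+ DC, against 6.41 to 7.25 (median 7.02) in Sirpa- DC, close to each other.

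Receptors of the myeloid surface were in large part higher in Sirpa+ DC. Of 27 C-type lectin receptors, 17 were higher and 1 lower in Sirpa+ DC (median 1.53). Clec4n, or Dectin-2, had 10.83 to 11.68 (median 11.47) in Sirpa+ DC, against 5.81 to 9.48 (median 8.46) in Sirpa- DC (11.1-fold higher), and Clec7a, or Dectin-1, had 12.37 to 12.70 (median 12.54) in Sirpa+ DC, against 9.15 to 10.66 (median 9.62) in Sirpa- DC (6.70-fold). Both bind fungal cell walls. Clec4a2 (3.02 ± 0.19), Cd209e (2.79 ± 0.36) and Clec5a (2.67 ± 0.11) were also higher. Langerin, Cd207, was the single member that was lower. Of 20 paired myeloid receptors, which turn cell responses on or off, 9 were higher and 1, Treml4, lower. Cd300lb had 6.75 to 9.0 (median 7.52) in Sirpa+ DC, against 3.84 to 5.39 (median 4.16) in Sirpa- DC (9.98-fold higher, on a dim Sirpa- signal). Cd300a (2.77 ± 0.20), Cd300lf (2.62 ± 0.27), Cd33 (2.45 ± 0.13) and Pilra (1.81 ± 0.16) were higher too. Cd47, the ligand of Sirpa, was not called (0.20 ± 0.13).

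Of 20 Fc and phagocytic receptors, 12 were higher and 1 lower. Fcgr3, an activating receptor for IgG, had 9.35 to 10.79 (median 9.84) in Sirpa+ DC, against 5.45 to 8.59 (median 7.19) in Sirpa- DC (7.71-fold higher), and Fcer1g, its signalling chain, had 10.17 to 10.53 (median 10.30) in Sirpa+ DC, against 6.92 to 8.47 (median 8.10) in Sirpa- DC (5.53-fold). The kinases Axl (2.67 ± 0.28) and Mertk (2.12 ± 0.30) and Timd4 (2.42 ± 0.20), which bind phosphatidylserine on dying cells directly or through bridging proteins, were higher, while the third kinase of that family, Tyro3, was not called (0.07 ± 0.13). Cd36, also a receptor for dying cells, was the member that was lower.

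**Figure D3:**
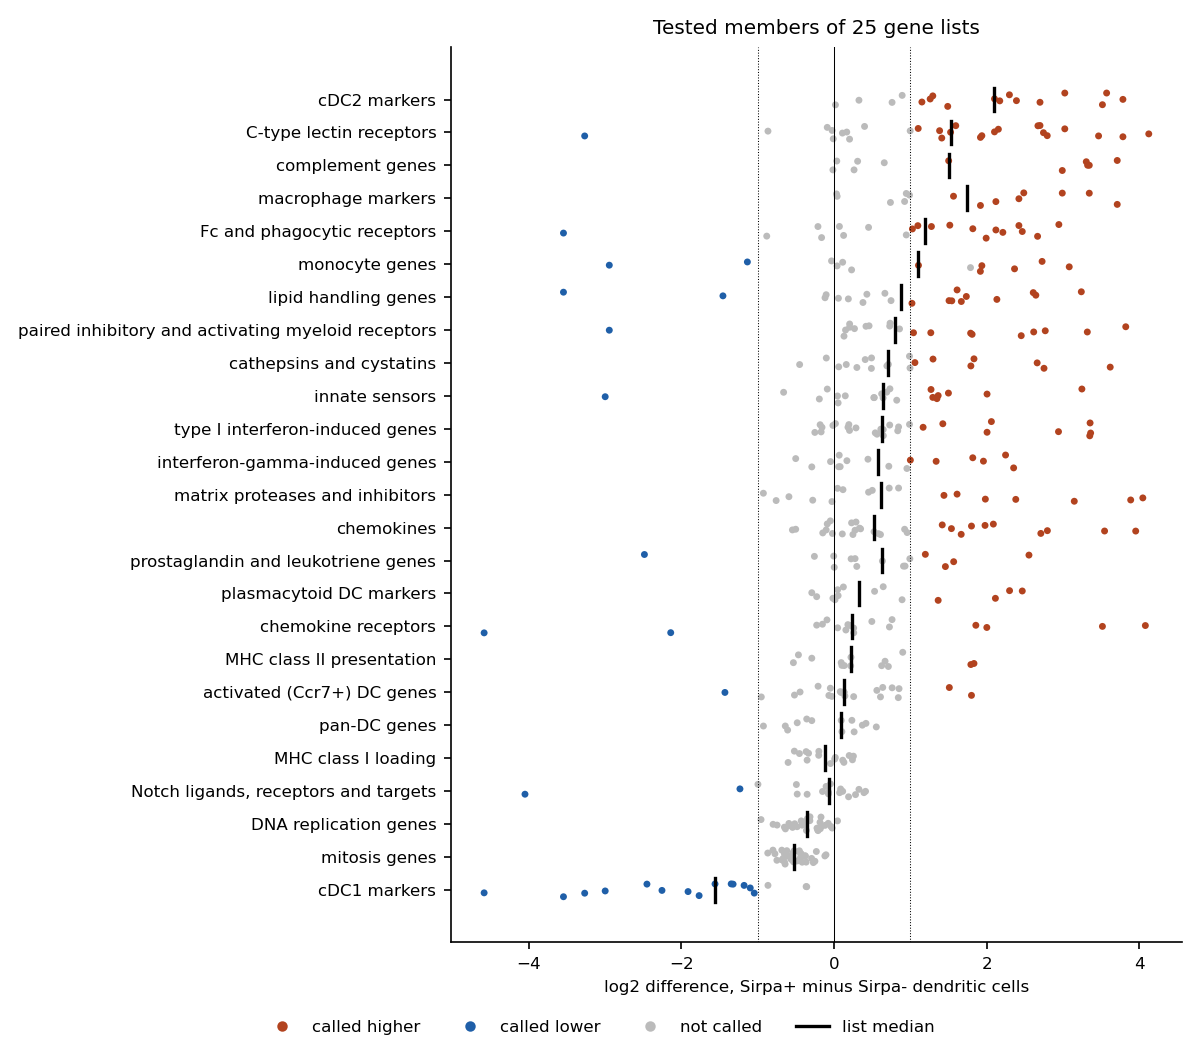
Log2 difference, Sirpa+ minus Sirpa- DC, for each tested member of 25 gene lists; colours mark the calls, the vertical bar is the list's median, and dotted lines mark 2-fold. Of the cDC2 markers 13 of 17 are called higher, of the cDC1 markers 14 of 17 are called lower, and of the mitosis and replication genes 0 are called, though nearly all of these lie left of 0.

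Chemokine receptors differed in both directions, with 4 of 18 higher (22.2%) and 2 lower (11.1%) in Sirpa+ DC. Among these calls, Cx3cr1 and Xcr1 are markers that were used to check the sort. Besides Ccr1 and Cx3cr1, Ccr6 had 7.76 to 8.82 (median 8.38) in Sirpa+ DC, against 5.85 to 6.81 (median 6.22) in Sirpa- DC (4.01-fold higher), and the chemerin-binding receptor Ccrl2 had 9.69 to 10.23 (median 10.07) in Sirpa+ DC, against 7.82 to 8.28 (median 8.20) in Sirpa- DC (3.63-fold). Lower were Xcr1 and Cxcr3, which had 6.02 to 7.42 (median 6.54) in Sirpa+ DC, against 8.41 to 9.11 (median 8.76) in Sirpa- DC (4.40-fold lower in Sirpa+ DC). Ccr7, which guides mature DC, was not called (0.26 ± 0.29), nor was the thymus-homing receptor Ccr9 (-0.23 ± 0.36). Of 29 chemokines, 10 were higher and 0 lower. Besides Ccl12 and Ccl9 these were the neutrophil attractant Cxcl2 (2.80 ± 0.43), Ccl6 (2.71 ± 0.47), Ccl3 (2.09 ± 0.22), Pf4 (1.98 ± 0.29), Ccl17 (1.80 ± 0.21), Ccl8 (1.67 ± 0.55), Ccl24 (1.54 ± 0.26) and the Cxcr3 ligand Cxcl10 (1.42 ± 0.25). Cxcl9, another ligand of Cxcr3, was not called (-0.50 ± 0.26). Ccl22 was strongly expressed in both, at 12.17 ± 0.47 in Sirpa+ DC and 11.56 ± 0.37 in Sirpa- DC (SD, n = 6 each).

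Innate sensors also went both ways. Of 21, 7 were higher and 1, Tlr3, was lower in Sirpa+ DC. Tlr1, which pairs with Tlr2 to bind bacterial lipopeptides, had 9.07 to 9.89 (median 9.67) in Sirpa+ DC, against 5.93 to 7.05 (median 6.28) in Sirpa- DC (9.50-fold higher), and Tlr2 had 8.91 to 9.91 (median 9.72) in Sirpa+ DC, against 7.81 to 8.55 (median 8.17) in Sirpa- DC (2.55-fold). Ddx58, the cytoplasmic RNA sensor RIG-I, had 9.30 to 9.82 (median 9.46) in Sirpa+ DC, against 6.84 to 7.90 (median 7.47) in Sirpa- DC (4.02-fold). Tlr4 (1.5 ± 0.30), its co-receptor Cd14 (1.29 ± 0.18), Tlr7 (1.36 ± 0.21) and Sting1 (1.27 ± 0.13) were higher as well. Tlr3 had 7.24 to 8.35 (median 7.62) in Sirpa+ DC, against 10.24 to 11.30 (median 10.75) in Sirpa- DC. The RNA sensor Ifih1 (0.62 ± 0.10), Tlr9 (0.05 ± 0.13), Tlr12 (-0.66 ± 0.16) and the adaptor Myd88 (-0.09 ± 0.13) were not called.

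Interferon-induced genes did not move as 1 block. Of 28 genes of the type I response, 8 were higher in Sirpa+ DC and 0 lower, and the median difference was 0.64. In 13 of the 28, all Sirpa+ arrays lay above all Sirpa- arrays (6.4% of all tested genes did). The mean of the list was 9.55 to 10.04 in Sirpa+ and 8.70 to 9.03 in Sirpa- arrays. Ifit3 had 9.64 to 10.68 (median 10.13) in Sirpa+ DC, against 6.45 to 7.32 (median 6.65) in Sirpa- DC (10.2-fold higher, limma adjusted p = 8.07e-15). Oasl2 had 9.27 to 10.05 (median 9.73) in Sirpa+ DC, against 5.98 to 7.07 (median 6.17) in Sirpa- DC (10.3-fold), Rtp4 had 10.43 to 11.15 (median 10.88) in Sirpa+ DC, against 6.70 to 8.32 (median 7.51) in Sirpa- DC (10.2-fold) and Ifit1 had 8.92 to 10.00 (median 9.47) in Sirpa+ DC, against 6.00 to 7.01 (median 6.61) in Sirpa- DC (7.68-fold). Oas2 (2.06 ± 0.15), Lgals3bp (1.43 ± 0.16) and Oas1a (1.17 ± 0.16) were higher by less. These genes restrict viral RNA or are induced with those that do. Other members of the same response showed no call, among them Irf7 (-0.01 ± 0.13), its main amplifying factor, Usp18 (0.20 ± 0.14), Stat2 (-0.17 ± 0.13), Mx1 (-0.25 ± 0.20), Ifi35 (-0.18 ± 0.14) and Oasl1 (0.02 ± 0.16). Those 6 all lay below the list's median difference and do not stand for every uncalled member. They had means in Sirpa- DC between 8.26 (Stat2) and 12.17 (Ifi35).

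Of 16 genes induced by interferon gamma, 6 were higher and 0 lower (median 0.58). Of these, 5 were guanylate-binding proteins, GTPases that attack vacuoles of intracellular microbes. Gbp7 had 8.71 to 9.75 (median 9.38) in Sirpa+ DC, against 6.45 to 7.62 (median 6.74) in Sirpa- DC (5.11-fold higher), and Gbp3 (2.25 ± 0.21), Gbp6 (1.96 ± 0.16), Gbp2 (1.82 ± 0.14) and Gbp8 (1.34 ± 0.24) followed, with the GTPase Ifi47 at 1.0 ± 0.13. The call of Ifi47 was at the 2-fold limit and ended under quantile normalization. The related GTPases Irgm1 (0.17 ± 0.13) and Igtp (0.72 ± 0.13), the factor Irf1 (0.07 ± 0.14) and the class II transactivator Ciita (-0.29 ± 0.18) were not called. Members of the Gbp and Oas families have near relatives, and a probe set may read more than 1 of them. In Sirpa- DC, Ifit1 averaged 6.54 and Gbp7 6.91, below all 30 other arrays. The means of the 4 epithelial and fibroblast populations were 10.74, 10.31, 9.66 and 7.45 for Ifit1 in cTEC, mTEClo, mTEChi and fibroblasts.

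**Figure D4:**
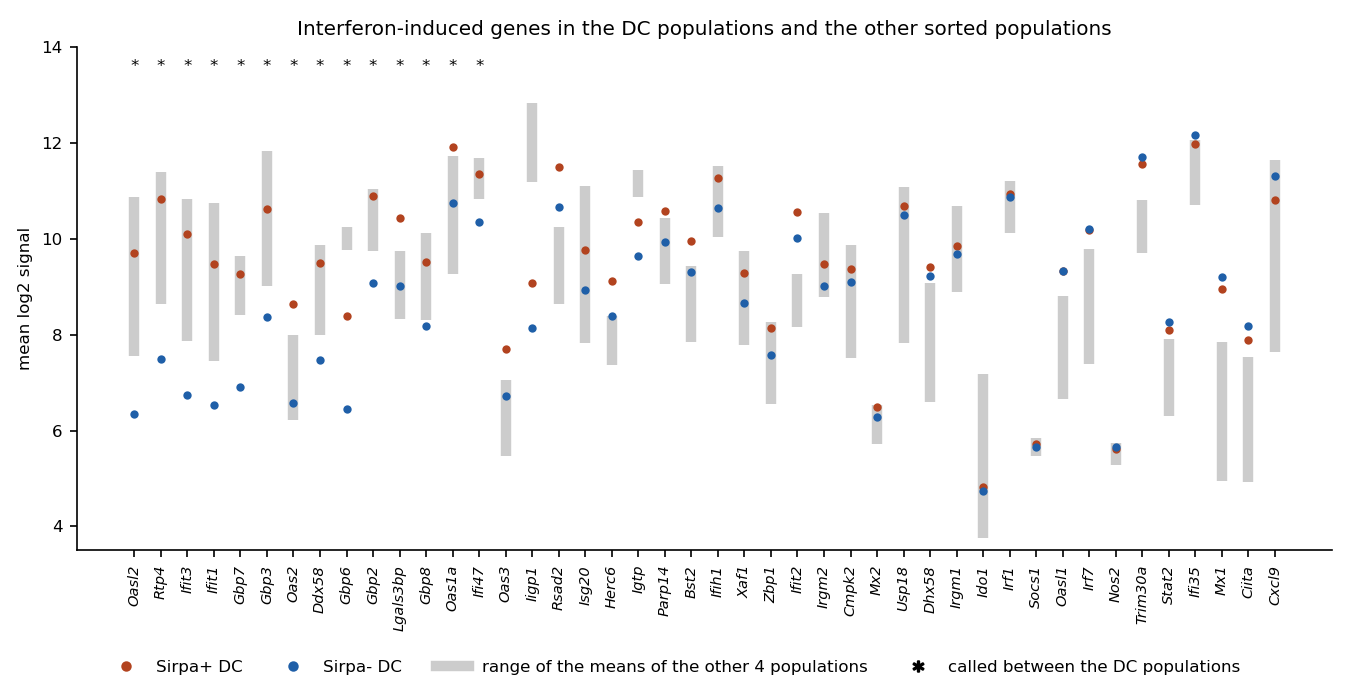
Mean log2 signal of genes induced by type I interferon or interferon gamma in Sirpa+ DC and Sirpa- DC (6 arrays each), ordered by their difference; grey bars span the means of the other 4 populations and asterisks mark called genes. At the left the Sirpa- means of Oasl2, Rtp4, Ifit3, Ifit1 and Gbp7 lie below the grey bars, and further right the DC populations lie close together, as for Irf7 and Usp18.

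Promoters of genes in these lists were searched for GAAANNGAAA, the core of the interferon-stimulated response element, on both strands. The window was 250 bases before to 50 after the gene's start in RefSeq (GRCm38.p6). Of the 8 called type I genes 6 have a window and 4 hold the motif, and of 14 uncalled ones with a window 6 do. For genes induced by interferon gamma, 3 of 4 called and 4 of 6 uncalled genes hold it. Over all genes called higher in Sirpa+ DC, 44 of 445 with a window hold it (9.89%), against 4 of 180 called lower (2.22%) and 431 of 11627 tested genes (3.71%). Of all 32851 windows, 3.44% hold it. Each window was counted once, whatever its number of matches. Of 2 further motifs searched in the same windows, the ETS-IRF composite GGAANNGAAA is in 24 of 445 genes called higher (5.39%), 7 of 180 called lower (3.89%) and 2.9% of tested genes. The E-box CACCTG is in 24.3%, 29.4% and 22.6% of the same groups. Matches of different motifs may overlap. A match describes these letters and shows no binding. Shown are the 250 bases before the start of 3 interferon-induced genes with large differences and of Cybb, which holds 3 matches, read 5′ to 3′ on the gene's strand with the matches in capitals.
Ifit1, chr19:34640639-34640888, plus strand: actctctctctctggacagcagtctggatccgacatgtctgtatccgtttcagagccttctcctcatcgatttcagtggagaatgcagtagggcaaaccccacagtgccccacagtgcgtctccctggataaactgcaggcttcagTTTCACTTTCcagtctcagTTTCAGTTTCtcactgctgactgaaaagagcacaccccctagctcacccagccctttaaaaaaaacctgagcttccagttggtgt
Ifit3, chr19:34583279-34583528, plus strand: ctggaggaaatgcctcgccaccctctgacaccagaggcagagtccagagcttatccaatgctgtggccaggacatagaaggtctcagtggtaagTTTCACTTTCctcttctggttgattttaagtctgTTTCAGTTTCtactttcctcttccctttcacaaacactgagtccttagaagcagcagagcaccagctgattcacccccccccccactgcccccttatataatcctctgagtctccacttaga
Gbp7, chr3:142530086-142530335, plus strand: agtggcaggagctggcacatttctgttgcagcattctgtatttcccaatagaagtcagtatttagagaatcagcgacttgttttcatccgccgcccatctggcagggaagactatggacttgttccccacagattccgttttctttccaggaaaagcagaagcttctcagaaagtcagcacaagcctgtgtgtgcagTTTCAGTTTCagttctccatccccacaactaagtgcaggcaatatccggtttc
Cybb, chrX:9469325-9469574, minus strand: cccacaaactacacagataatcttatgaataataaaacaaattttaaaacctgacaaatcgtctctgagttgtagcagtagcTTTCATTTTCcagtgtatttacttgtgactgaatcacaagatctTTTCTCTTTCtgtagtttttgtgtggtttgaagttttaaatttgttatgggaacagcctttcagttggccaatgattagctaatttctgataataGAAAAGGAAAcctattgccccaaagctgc

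In Ifit1, Ifit3 and Gbp7 the capitals are the motif read on the opposite strand, and in Cybb the last of the 3 matches is on the gene's strand. Windows of the genes with the largest differences in favour of Sirpa- DC, namely Gcsam, Cltrn, Xcr1, Notch4, Clnk and Cd36, hold no match. The motif is in only 3.71% of tested genes, so its absence from so few genes shows no contrast between the populations.

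Of 18 cytokines, 4 were higher and 1 lower in Sirpa+ DC, 22.2% and 5.56% against 3.87% and 1.5% of all tested genes. Il1rn, the interleukin-1 antagonist, had 7.09 to 9.11 (median 8.01) in Sirpa+ DC, against 5.40 to 6.05 (median 5.71) in Sirpa- DC (4.87-fold higher), and Osm, or oncostatin M, had 9.32 to 10.09 (median 9.74) in Sirpa+ DC, against 7.48 to 7.82 (median 7.67) in Sirpa- DC (4.24-fold). Il1a (1.72 ± 0.16) and Il1b (1.17 ± 0.20) were higher. Il12b, the shared subunit of interleukins 12 and 23, had 7.78 to 9.13 (median 8.61) in Sirpa+ DC, against 9.62 to 10.57 (median 9.90) in Sirpa- DC (2.69-fold lower in Sirpa+ DC). Of 15 prostaglandin and leukotriene genes, 4 were higher (26.7%) and 1 lower (6.67%). Ptgs2, the inducible cyclooxygenase, had 7.70 to 9.95 (median 8.21) in Sirpa+ DC, against 5.17 to 7.13 (median 6.17) in Sirpa- DC (5.87-fold higher). Among prostaglandin E2 receptors, Ptger3 was higher (1.57 ± 0.16) and Ptger2 lower, with 3.79 to 4.91 (median 4.0) in Sirpa+ DC, against 6.15 to 7.26 (median 6.59) in Sirpa- DC (5.59-fold lower, on a dim Sirpa+ signal). The prostaglandin D synthase Hpgds (1.46 ± 0.14) and the leukotriene receptor Cysltr1 (1.20 ± 0.11) were higher.

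Lists of antigen presentation and DC maturation were called at shares of 0% to 17.6% higher in Sirpa+ DC, against 3.87% of all tested genes. Of 14 genes of MHC class II presentation, 2 were higher (14.3%), the lysosomal proteases Ctsl (1.83 ± 0.31) and Lgmn (1.79 ± 0.23). The class II genes themselves were close, with Cd74 at 12.52 ± 0.26 in Sirpa+ DC and 12.42 ± 0.28 in Sirpa- DC and H2-Ab1 at 13.25 ± 0.39 in Sirpa+ DC and 13.16 ± 0.20 in Sirpa- DC (SD, n = 6 each). Of 16 genes of MHC class I loading, 0 were called. Of 22 genes of activated, Ccr7-expressing DC, 2 were higher (9.09%), the Ccr4 ligand Ccl17 and the PD-1 ligand Pdcd1lg2 (1.51 ± 0.16), and 1, Il12b, was lower. Cd86 was below the fold (-0.95 ± 0.14, limma adjusted p = 9.32e-06), with 10.22 to 10.82 (median 10.58) in Sirpa+ DC, against 11.43 to 11.77 (median 11.48) in Sirpa- DC and no overlap, and Cd80 (-0.21 ± 0.17), Cd40 (-0.07 ± 0.17), Cd83 (-0.03 ± 0.37) and Fscn1 (0.14 ± 0.31) were not called. Among 17 costimulatory and coinhibitory ligands, 3 were higher (17.6%), Pdcd1lg2, Tnfsf8 (1.27 ± 0.12) and Tnfsf10 (1.11 ± 0.15).

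Genes of lysosomes, complement and lipid handling were higher in Sirpa+ DC in part. Of 19 cathepsins and cystatins, 7 were higher and 0 lower. Ctsd, an aspartic protease, had 11.19 to 12.47 (median 11.77) in Sirpa+ DC, against 8.33 to 9.74 (median 9.35) in Sirpa- DC (6.33-fold higher), and Ctsa had 10.66 to 11.32 (median 11.05) in Sirpa+ DC, against 7.16 to 9.15 (median 8.55) in Sirpa- DC (6.73-fold). Of 11 complement genes, 6 were higher. C3ar1, the receptor of the fragment C3a, had 8.26 to 9.71 (median 8.85) in Sirpa+ DC, against 5.31 to 5.90 (median 5.51) in Sirpa- DC (10.0-fold), and Cfb, a protease of the alternative pathway, had 8.17 to 8.85 (median 8.57) in Sirpa+ DC, against 4.94 to 5.76 (median 5.16) in Sirpa- DC (9.89-fold). Of 20 lipid handling genes, 10 were higher and 2 lower. Apoe had 11.74 to 12.44 (median 12.21) in Sirpa+ DC, against 6.67 to 10.34 (median 9.68) in Sirpa- DC (9.45-fold), the lipase Lpl 2.64 ± 0.42 and the cholesterol exporter Abca1 2.61 ± 0.24, while the fatty acid receptors were split, with Ffar2 higher (1.73 ± 0.16) and Ffar4 lower (-1.45 ± 0.23). The lipid phosphatase Plpp1 and Cd36 stood on the Sirpa- side.

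Of 18 matrix proteases and inhibitors, 7 were higher, among them Mmp12, the macrophage elastase, whose arrays overlapped, with 6.80 to 9.15 (median 8.51) in Sirpa+ DC, against 3.71 to 7.51 (median 3.84) in Sirpa- DC (14.8-fold), Timp2 (3.15 ± 0.22) and Mmp14 (1.61 ± 0.21), which activates Mmp2. Of 14 retinoic acid genes, 3 were higher (21.4%, against 3.87% of all tested genes). They were the synthesising enzyme Aldh1a2 (1.89 ± 0.22), Dhrs3 (1.51 ± 0.16) and the receptor Rarg (1.06 ± 0.18). Of 27 integrins and adhesion genes, 3 were higher and 3 lower (11.1% each, against 3.87% and 1.5% of all tested genes). Vcam1 (1.01 ± 0.33) and Itgb3 (1.03 ± 0.14), both at the 2-fold limit, were higher, and Itgal (-1.13 ± 0.21), the chain of LFA-1, was lower together with Itgae and Cadm1. Of 19 Notch genes, 0 were higher and 2 lower (10.5%, against 1.5% of all tested genes). Besides Notch4, the ligand Jag2 had 6.83 to 7.28 (median 7.02) in Sirpa+ DC, against 8.18 to 8.40 (median 8.28) in Sirpa- DC (2.35-fold lower in Sirpa+ DC). Jag1 fell just short of 2-fold (-1.0 ± 0.22, limma adjusted p = 0.00143). Notch1 (0.11 ± 0.12), Notch2 (-0.35 ± 0.13) and the target Dtx1 were not called.

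Genes of cell division mostly had negative differences of less than 2-fold. Of 34 mitosis genes, 0 passed, with a median difference of -0.52 against 0.00249 over all genes, and in 10 of them all Sirpa+ arrays lay below all Sirpa- arrays (5.14% of all tested genes did). The largest differences were Nek2 (-0.87 ± 0.16, limma adjusted p = 1.87e-04) and Kif23 (-0.80 ± 0.15, 2.71e-04). Of 30 DNA replication genes, 0 passed (median -0.35), and in 6 all Sirpa+ arrays lay below. With the thymocyte mean as a covariate, 3 mitosis genes and 1 replication gene were called lower in Sirpa+ DC. Cdc45, a subunit of the replicative helicase, had 6.67 to 7.36 (median 7.07) in Sirpa+ DC, against 7.84 to 8.14 (median 7.98) in Sirpa- DC (-0.96 ± 0.13, limma adjusted p = 3.61e-06). The mean of the mitosis genes was 8.08 to 8.60 in Sirpa+ and 8.77 to 8.96 in Sirpa- arrays.

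Markers of other cell types moved with the populations to different degrees. Of 14 tested macrophage markers, 8 were higher in Sirpa+ DC and 0 lower, and the mean over the 15 members measured was 7.96 to 8.87 in Sirpa+ and 5.87 to 7.85 in Sirpa- arrays. C1qa had 11.27 to 12.15 (median 11.78) in Sirpa+ DC, against 6.15 to 9.23 (median 8.72) in Sirpa- DC, and Adgre1, a classical macrophage surface protein, had 10.09 to 11.03 (median 10.50) in Sirpa+ DC, against 7.37 to 8.38 (median 8.20) in Sirpa- DC. Timd4, a marker of resident macrophages, had 7.54 to 9.36 (median 8.20) in Sirpa+ DC, against 4.54 to 6.61 (median 6.03) in Sirpa- DC. Marco was dim in both (4.93 ± 0.22 in Sirpa+ DC and 4.88 ± 0.20 in Sirpa- DC) and Cd163 had 5.22 to 8.67 (median 7.30) in Sirpa+ DC, against 4.38 to 10.05 (median 6.70) in Sirpa- DC, overlapping widely. Of 13 monocyte genes, 6 were higher, such as the lysozyme Lyz2 (3.08 ± 0.29), and 2, Itgal and Treml4, lower. Many of the chemokine, lectin, Fc receptor, complement and lipid genes given above are also expressed by macrophages, and the part of such cells in those results was not tested.

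Of 14 plasmacytoid DC markers, 4 were higher in Sirpa+ DC, with means of 7.95 to 8.78 in Sirpa+ and 7.20 to 8.62 in Sirpa- arrays. Spib had 8.32 to 9.07 (median 8.75) in Sirpa+ DC, against 5.55 to 7.71 (median 5.92) in Sirpa- DC (5.53-fold), and Blnk (2.30 ± 0.33), Klra17 (2.11 ± 0.34) and Tlr7 followed, while the defining receptor Siglech was not called (0.53 ± 0.24). Thymocyte markers averaged 6.89 to 7.99 in Sirpa+ and 5.87 to 7.31 in Sirpa- arrays. Of 13, Cd4 (1.05 ± 0.15) and Cd5 (1.14 ± 0.28) were higher, while Rag1 was not called (1.37 ± 0.55, limma adjusted p = 0.0787). With the thymocyte mean as a covariate, 834 genes were called, and 689 of the 779 were among them. Of 11 B cell markers, the inhibitory receptor Cd22 was higher (1.69 ± 0.29) and Fcrla lower (-2.04 ± 0.25), while Cd79a (0.04 ± 0.17) and Pax5 (-0.05 ± 0.11) were not called. Of 14 epithelial markers, Epcam, which some DC also carry, was higher (1.67 ± 0.21), while Foxn1 had 4.13 ± 0.28 in Sirpa+ DC and 4.10 ± 0.14 in Sirpa- DC and Trp63 4.53 ± 0.19 in Sirpa+ DC and 4.37 ± 0.23 in Sirpa- DC. Of 9 fibroblast and endothelial markers Kdr was higher (1.22 ± 0.14), of 9 natural killer genes Klrd1 (2.15 ± 0.42), and of 8 granulocyte markers 0 were called. A single call is 7.14% of the 14 epithelial, 9.09% of the 11 B cell and 11.1% of the 9 fibroblast or natural killer genes. Of all tested genes, 3.87% were higher and 1.5% lower, so a single call is no result about a list. The part of other cells in these results was not tested.

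The comparison was repeated within each age, where it rests on 2 arrays against 2. At 1 month, 762 genes differed (5.26%), 543 higher (3.75%) and 219 lower (1.51%) in Sirpa+ DC. At 3 months there were 704 (4.86%), with 500 higher (3.45%) and 204 lower (1.41%), and at 6 months 766 (5.28%), with 540 higher (3.73%) and 226 lower (1.56%). At 3 months the number was 434 without replicate 1 of Sirpa- DC at that age. Of the 779 genes called over all ages, 771 had the same sign at each age and 489 were at least 2-fold at each. The difference of Xcr1 was -4.01, -4.49 and -5.25 at 1, 3 and 6 months, that of Ifit3 3.16, 2.94 and 3.95, and that of Clec10a 1.35, 1.62 and 3.34. Some lists went the other way. The median difference of the macrophage markers was 2.77, 2.03 and 0.72 at these ages, and that of the complement genes 2.75, 1.58 and 0.54. For the cDC2 markers it was 1.79, 1.62 and 1.98. Changes of list medians with age were not tested.

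Whether the difference between the populations changed with age was tested by a moderated F-test for the interaction. The number of genes that passed was 0 (0% of those tested), and 425 had an unadjusted p under 0.05. The count rose with some alternatives, to 38 with array weights and to 21 without replicate 1 of Sirpa- DC at 3 months, and it was 4 to 11 without any one of 5 other arrays. The smallest adjusted p was 0.0603, for Tspan10, Ptger3 and Abcb1a. Tspan10, a tetraspanin, had 8.32 and 7.43, 6.17 and 7.01 and 5.86 and 5.83 in Sirpa+ DC at 1, 3 and 6 months, against 5.42 and 4.84, 5.09 and 5.97 and 5.85 and 5.37 in Sirpa- DC. Ptger3 had 4.48 and 5.22, 6.22 and 5.70 and 7.10 and 7.10 in Sirpa+ DC, against 4.61 and 4.53, 4.46 and 3.89 and 4.27 and 4.66 in Sirpa- DC. The drug exporter gene Abcb1a stood highest in Sirpa+ DC at 3 months (7.54 and 7.43). The next were Cd209d, Nrn1, Sirpb1a and Itgam (limma adjusted p = 0.0920 each) and Qpct (0.141).

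In Sirpa+ DC, 299 genes differed between 6 and 1 month (2.06% of those tested, at a limma adjusted p under 0.05 with no fold limit), 195 higher (1.35%) and 104 lower (0.717%) at 6 months. In Sirpa- DC, 131 did (0.904%), 78 higher (0.538%) and 53 lower (0.366%). Both numbers depend on single arrays. In Sirpa+ DC, 37 and 164 genes were called without replicate 1 or 2 at 1 month, and 23 and 92 without replicate 1 or 2 at 6 months. In Sirpa- DC, 24 and 75 genes were called without replicate 1 or 2 at 1 month, and 29 and 16 without replicate 1 or 2 at 6 months. At an unadjusted p under 0.05 there were 2369 genes in Sirpa+ and 1709 in Sirpa- DC. The labels of the 6-month DC arrays carry a description and a health tag that those of the other ages lack. The 3′ minus 5′ signal of Gapdh and Actb, a sign of RNA quality, was 1.41 to 1.52 in Sirpa+ DC and 1.41 to 1.44 in Sirpa- DC at 6 months, against 1.75 to 1.80 in Sirpa+ and 1.78 to 1.82 in Sirpa- DC at 1 month. Age, handling and RNA quality cannot be told apart in these comparisons.

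Both populations shared part of the change. Of the 195 genes higher at 6 months in Sirpa+ DC, 42 (21.5%) were also called higher in Sirpa- DC, against 0.538% of all tested genes. They are 53.8% of its 78. Called lower in both were 11 genes (10.6% of 104 and 20.8% of 53), where 0.366% of all tested genes were lower in Sirpa- DC. By sign alone, 186 of the 195 and 85 of the 104 changed the same way in Sirpa- DC. Likewise, 68 of the 78 and 49 of the 53 did so in Sirpa+ DC. The share of the same sign over all tested genes was not determined. A gene called in 1 population only may thus have changed in both. The number called in opposite directions was 0. Among those higher in both were the immediate early genes Junb, Fosl2 and Nr4a2 and the chemokines Ccl3 and Ccl4. Ccl4 had 10.26 and 9.52 in Sirpa+ DC at 6 months, against 8.21 and 8.54 at 1 month, and 10.09 and 9.79 in Sirpa- DC at 6 months, against 8.43 and 8.47 at 1 month. Junb had 10.99 and 11.07 against 9.32 and 9.82 in Sirpa+ DC, and 10.59 and 10.81 against 9.46 and 9.46 in Sirpa- DC, at the same ages. The mean of 25 immediate early and heat shock genes, which respond to cell isolation, was 11.66 and 11.46 in Sirpa+ and 11.54 and 11.49 in Sirpa- arrays at 6 months, against 10.59 and 10.83 in Sirpa+ and 10.71 and 10.74 in Sirpa- arrays at 1 month. Cdh2, or N-cadherin, was lower in both, at 5.33 and 4.99 against 8.59 and 8.09 in Sirpa+ DC and 3.86 and 4.14 against 7.03 and 7.17 in Sirpa- DC. At 3 months Cdh2 had 5.0 and 5.09 in Sirpa+ and 4.52 and 4.42 in Sirpa- DC, and the other 4 populations averaged 8.14. Stat2 (1.56 in Sirpa+ and 1.11 in Sirpa- DC) and the antiviral kinase Eif2ak2 (1.53 in Sirpa+ and 1.23 in Sirpa- DC) were higher in both.

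Among the largest changes of Sirpa+ DC were Ptger3 (2.25, limma adjusted p = 7.79e-05) and Ptgs2 (2.13, 0.0235), both of the prostaglandin E2 pathway. The RIKEN transcripts, 2610024D14Rik (2.61), 9530059O14Rik (1.99) and 6820431F20Rik (1.87), rose in Sirpa+ and also in Sirpa- DC. The complement gene C2 in Sirpa+ DC had 6.59 and 6.98 at 6 months against 9.82 and 8.76 at 1 month (limma adjusted p = 0.00404). The milk protein gene Csn2, a tissue antigen of medullary epithelium, had 5.01 and 5.70 against 8.54 and 8.51. S100a8, a neutrophil gene, had 4.39 and 4.42 against 7.63 and 7.08. Tspan10, with the values given above, was lower at 6 months as well.

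In Sirpa- DC the largest rise was in Cd163, the haemoglobin scavenger receptor of macrophages, with 9.55 and 10.05 at 6 months against 4.77 and 4.38 at 1 month (log2 5.22, limma adjusted p = 3.50e-04). At 3 months the 2 arrays had 4.83 and 8.57. The iron exporter Slc40a1 had 9.33 and 9.76 against 7.54 and 5.15, and Spic, a factor of iron-recycling macrophages, rose by 1.78. These are 3 of the 14 macrophage markers, while 0.538% of all tested genes were higher at 6 months in Sirpa- DC. C1qa, at 9.23 and 9.23 against 8.22 and 6.49, was not called (limma adjusted p = 0.140). Adgre4 (3.60), Adamdec1 (3.46) and Clec1b (2.87) rose as well. In Sirpa+ DC the change of Cd163 was 2.11 (limma adjusted p = 0.130), and the interaction did not pass (limma adjusted p = 1.00). The mean of the macrophage markers in Sirpa- arrays was 7.78 and 7.85 at 6 months, 5.87 and 7.54 at 3 months, and 6.80 and 5.97 at 1 month. Sirpa in the same arrays was 7.61 and 7.60 at 6 months, 5.56 and 7.67 at 3 months and 7.52 and 6.20 at 1 month. The 2 arrays with the lowest Sirpa also had the 2 lowest macrophage means. The part of other cells in this result was not tested. Lower at 6 months in Sirpa- DC were, besides Cdh2, the collagen receptor Ddr1 (-2.53), the phosphatase Ptprf (-2.38), the myosin kinase Mylk (-2.21) and the hypoxia factor Epas1 (-2.21). Xcr1 rose by 1.05 (limma adjusted p = 0.0332).

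**Figure D5:**
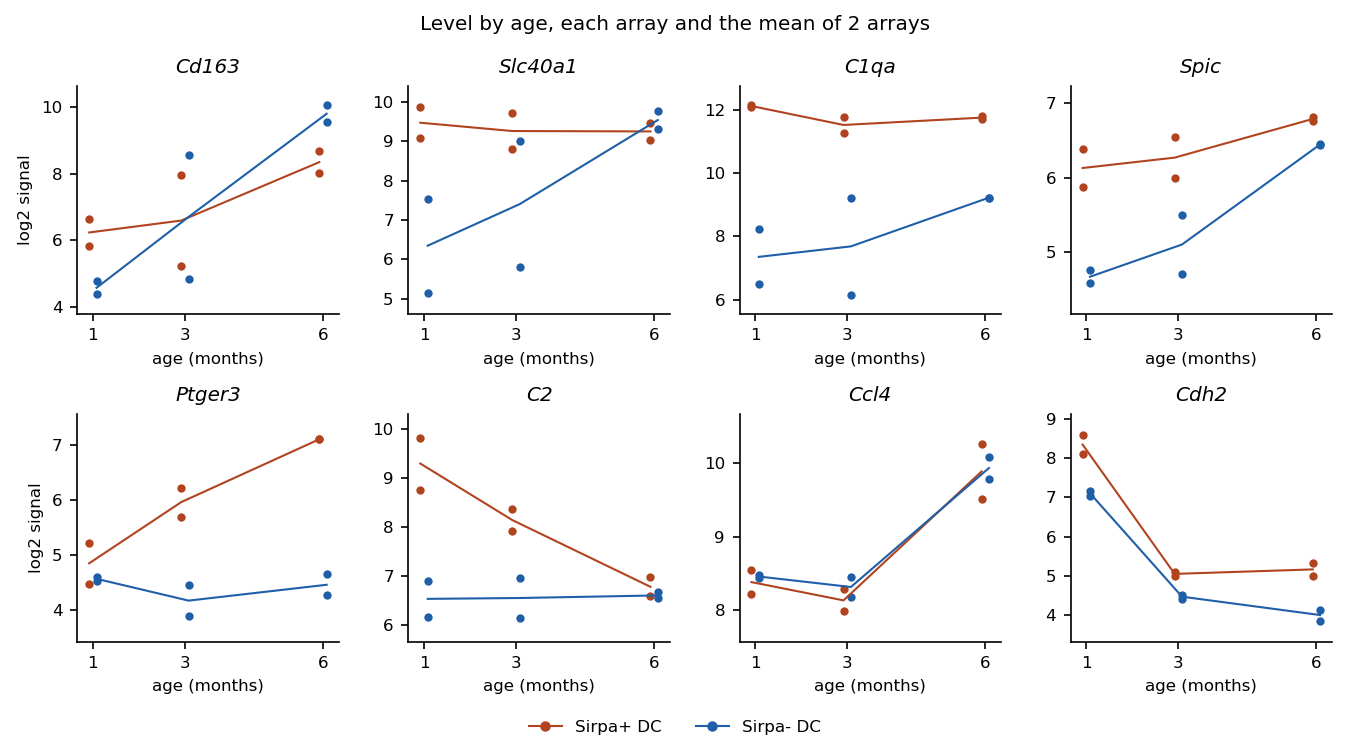
Log2 signal of 8 genes in Sirpa+ and Sirpa- DC at 1, 3 and 6 months; points are arrays and lines join the means of 2 arrays. In Sirpa- DC, Cd163 lies at 9.55 and 10.05 at 6 months, above its values at the other ages, and Slc40a1 and Spic also differ between 6 and 1 month; Ptger3 and C2 do so in Sirpa+ DC, and Ccl4 and Cdh2 in both.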

How the data were processed

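RNA of sorted cells was hybridised to Affymetrix mouse genome arrays. The deposited log2 signals were normalized by the authors through Gene Expression Commons, per the labels and the series' design text, and the submitters' processing notes name GCRMA without a version. That the scale is log2 was read from the range of values. No raw array file was used.

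The table holds 45101 probe sets, of which 64 are controls, 34945 have 1 gene symbol, 932 several and 9160 none. Of 18193 genes, the 14495 above the pooled median of 5.66 in at least 2 arrays were tested with limma 3.58.1 in R 4.3.3. The model held the means of 18 groups (6 populations at 3 ages) with an intensity trend, and left 18 residual degrees of freedom. P-values were adjusted by Benjamini-Hochberg over all tested genes. Population comparisons needed an adjusted p under 0.05 and 2-fold, while age comparisons and the interaction needed the adjusted p alone. The fit was tested on simulated data. In 37 lists of 683 genes, 630 had a probe set and 608 were tested. Genes were named by fixed rules: the 15 largest differences each way without overlap, list members with at most 6 called ones in full, 5 per age comparison and 8 for the interaction. The members and lists were chosen with earlier results of these data known. Replicate numbers were not taken as pairs in the main fit. The correlations of their deviations between the DC populations at 1, 3 and 6 months were 0.103, 0.418 and -0.00495. At 3 months, replicates of the same number thus varied in part together. With the replicate block as an alternative, 782 genes were called. Alternatives covered normalization, filter, probe set choice, variance model, array weights, covariates, the fold and leaving out arrays.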

Additional observations from a re-analysis of the deposited data

Results flagged for a closer look

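In each DC population, a level was set apart where the gap between the highest or lowest of the 6 arrays and its nearest neighbour was a large part of the whole range (Dixon's ratio above its critical value). This held for 9 of 134 groups of values, and chance gives about 1 in 20. In Sirpa- DC, replicate 2 at 3 months was highest for S100a4, at 9.97 against 8.76 in the nearest array (ratio 0.637), and for Ccl9, at 8.90 against 6.51 (0.785). The same array was highest for the mean of the monocyte genes (8.51, ratio 0.687), of the B cell markers (7.54, ratio 0.777) and of the natural killer and cytotoxic genes (6.86, ratio 0.722). Replicate 1 at 1 month was highest for the plasmacytoid DC markers, at 8.62 against 7.72 in the nearest array (ratio 0.633). In Sirpa+ DC, replicate 1 at 3 months was lowest for the macrophage markers (7.96 against 8.53, ratio 0.630). Replicate 2 at 1 month was highest for the chemokine receptors (6.94 against 6.76, ratio 0.675), and replicate 1 at 6 months was lowest for the retinoic acid genes (6.03 against 6.17, ratio 0.677).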

How the results depend on the processing

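Over all ages, the number of genes called between the DC populations was 591 to 845 under every alternative except at least 4-fold in place of 2-fold, which gave 213. With a gene's probe sets averaged, 591 were called, 569 of them among the 779. The stricter fold gave 231, 204 and 234 at 1, 3 and 6 months, and, with at least 2-fold asked of the age comparison, 187 for Sirpa+ DC. Leaving out single arrays gave 738 to 837 over all ages, 565 to 767 at 1 month, 434 to 723 at 3 months and 575 to 768 at 6 months. With the replicate block, 782 were called over all ages, and the age comparisons gave 443 in Sirpa+ and 219 in Sirpa- DC. The count of genes whose difference changed with age, 0 as reported, was 3 under quantile normalization, 5 with no filter, 38 with array weights, 5 with the replicate block, 3 with the 3′ minus 5′ covariate, 2 with the thymocyte covariate and 0 to 21 without single arrays. Between 6 and 1 month, averaged probe sets gave 729 genes in Sirpa+ and 272 in Sirpa- DC, array weights 1703 and 1522, the 12 DC arrays alone 793 and 255, and the thymocyte covariate 535 and 258. With the 3′ minus 5′ covariate, 71 were called in Sirpa- DC. Without single arrays the counts were 23 to 341 in Sirpa+ and 16 to 165 in Sirpa- DC. The alternative without the 2 Sirpa- arrays that stood apart was chosen after seeing the data, and it gave 18 genes for the change with age and 56 between 6 and 1 month in Sirpa- DC. The cause of these shifts was not tested.

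Of 136 genes described with a call between the populations, 0 reversed under any alternative and 90 stayed called under all planned ones. The other 46 were below 4-fold. Among these, 11 also lost the call with averaged probe sets (Cd4, Epcam, Tlr4, Tnfsf10, Ptger3, Itgal, Itgae, Itgb3, Ctsf, Rarg and Fosl2) and 7 with the thymocyte covariate (Cd5, Cd4, Gbp8, Ifi47, Tnfsf10, Itgb3 and Vcam1). Leaving out 1 array ended the call of Ifi47, Itgb3, Vcam1, Itgae, Tnfsf10, Cd4, Cd5, Il1b or Rarg, all close to 2-fold. With 2 arrays per age, a call at 1 age rests on the spread pooled over all groups. Signals below the pooled median leave small differences of dim genes undetectable.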

Other observations

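The genes called higher in Sirpa+ DC had a median level of 8.31 in Sirpa+ DC, 6.43 in Sirpa- DC and 7.23 in the other 4 populations. For 242 of these 561 (43.1%), the mean of the other populations lay above the Sirpa- mean by at least 1 on the log2 scale, against 15.6% of all tested genes. The call selects genes that are low in Sirpa- DC, which can by itself raise this share. The genes called lower had medians of 7.10 in Sirpa+ DC, 8.84 in Sirpa- DC and 7.07 in the other populations. Of 25 immediate early and heat shock genes, 1 differed between the DC populations, the AP-1 subunit Fosl2, which was higher in Sirpa+ DC.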
